A study of Bos taurus with 8 samples.

Results

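The miRNA names described here are the human homologue names of a cattle small RNA experiment, which are the names under which reads were placed when no bovine mature miRNA matched them. They are all names with the prefix for human (hsa) in the deposited table of raw read counts, without miR-802, which was left out of the set by rule. This gave 138 of 704 names, against 565 names registered for cattle. Small RNA was sequenced from the plasma and the blood cells of 4 non-pregnant Holstein-Friesian cross cows (44 to 47), with 1 library of each fraction per cow, 8 in all. Plasma was cleared by centrifugation in stages and passed through a filter, and blood cells were the pellet of red blood cells and buffy coat from the same blood sample. No cow was treated, all were young adult females, and both fractions of a cow carry the same genotype. An equal volume of RNA extract, and not an equal mass, went into each library, so a level says what share of a library's miRNA reads a name took and not how much RNA the blood held.

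A mature miRNA is cut from 1 arm of an RNA hairpin, and it guides the silencing complex to messenger RNAs through its first bases. Mature miRNAs are often the same letter for letter between mammals, so a sequence registered in the human catalogue and not yet in the bovine one can be found by searching the human catalogue after the bovine one. The same search also collects other short RNAs that happen to match, because several human entries lie within, or match, ribosomal RNA, transfer RNA, small nuclear or nucleolar RNA, or mitochondrial RNA.

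The libraries held 1450425 to 4289544 reads under bovine names in plasma and 11167875 to 14470430 in blood cells. Levels are given as RPMM, a name's reads divided by the reads under bovine names of the same library and multiplied by 1000000, and 3 reads, used here as a floor, were worth 0.699 to 2.07 RPMM in plasma, against 0.207 to 0.269 RPMM in blood cells. The labelled fractions were checked on bovine marker names. Red blood cell miRNAs (miR-451, miR-486 and miR-144) summed to 89309 to 181163 RPMM in plasma, against 488629 to 561671 RPMM in blood cells. The liver miRNA miR-122 stood at 36.8 to 818 RPMM in plasma, against 0 to 0.179 RPMM in blood cells, and epithelial miRNAs (miR-200a, miR-205 and miR-429) summed to 1287 to 2629 RPMM in plasma, against 0.259 to 0.415 RPMM in blood cells. Leukocyte miRNAs (miR-142-5p, miR-223, miR-150 and miR-155) were present in both, with 31329 to 66108 RPMM in plasma, against 22696 to 28399 RPMM in blood cells, and miR-223 with miR-126-3p, found in platelets, summed to 1611 to 4782 RPMM in plasma, against 616 to 1792 RPMM in blood cells. In blood cells miR-223, also counted among leukocytes, averaged 1070 RPMM and miR-126-3p 3.05 RPMM. In plasma they averaged 2571 and 650 RPMM, so this sum does not mark platelets alone. The part that other cells, or RNA they released, had in any level below was not tested. In bulk samples, fewer cells of a type and less RNA per cell cannot be told apart.

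Human names took a larger share of the plasma libraries than of the blood cell libraries, and most of that excess lay under miR-210-3p and miR-4532. The 138 names held 1942, 1556, 1785 and 1342 RPMM in the plasma of cows 44, 45, 46 and 47, against 119, 107, 106 and 117 RPMM in their blood cells. The fractions did not overlap, and plasma was higher in 4 of 4 cows. The mean was 1656 ± 263 RPMM in plasma, against 112 ± 6.54 RPMM in blood cells (SD, n = 4 each), a geometric mean ratio of 14.6 that ran from 11.5 to 16.8 between cows (exact two-sided permutation test of paired log2 ratios, p = 0.125, the smallest that 4 pairs can give). As a share of all miRNA reads, human names made up 0.165% ± 0.0262 in plasma, against 0.0112% ± 0.000654 in blood cells (SD, n = 4 each). Without miR-210-3p and miR-4532, a set chosen after the values were seen, the other 136 names held 320 ± 52.4 RPMM in plasma, against 101 ± 5.72 RPMM in blood cells (SD, n = 4 each), a ratio of 3.14 (2.68 to 3.73 between cows, exact permutation p = 0.125) and a mean log2 ratio of 1.65. For comparison, the median log2 fold change over the 479 names with at least 10 reads was 1.52 under scaling by library totals alone.

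**Figure D1:**
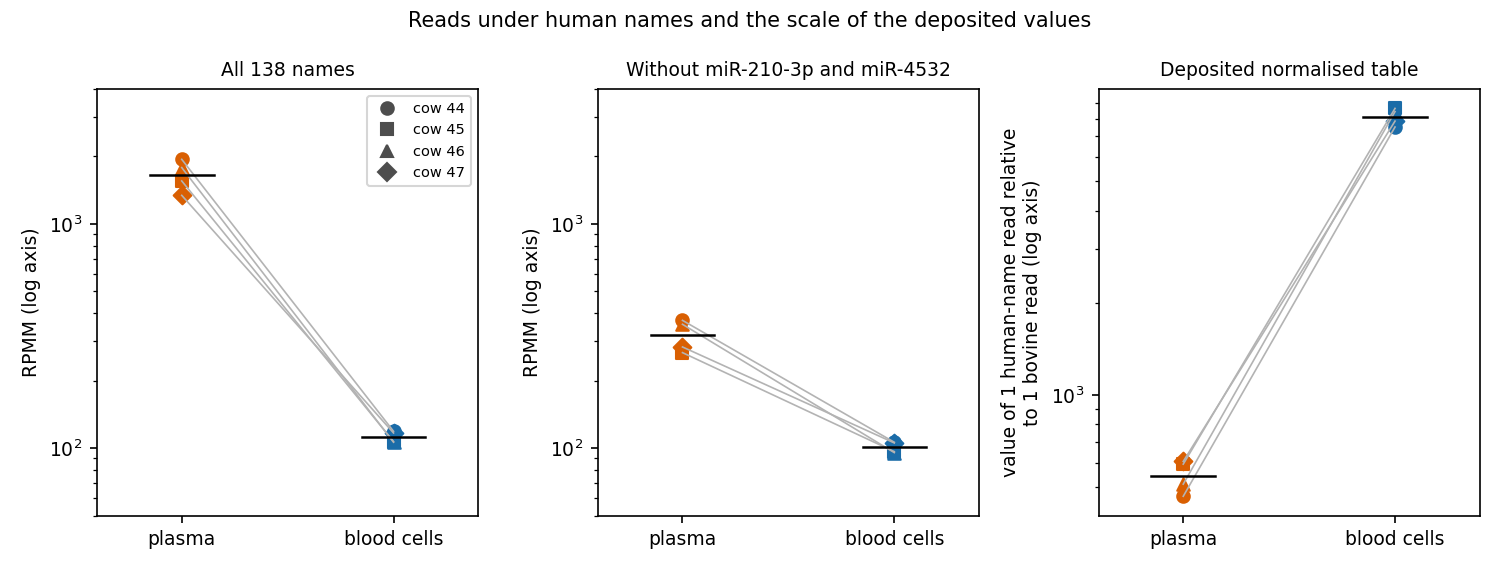
Reads under human names by fraction, 1 symbol per cow, with lines joining the fractions of a cow and a bar at the mean. The left panel shows the RPMM of all 138 names on a log axis (1342 to 1942 in plasma, 106 to 119 in blood cells), the middle panel the RPMM without miR-210-3p and miR-4532 (267 to 372 in plasma, 95.6 to 106 in blood cells), and the right panel what 1 read under a human name is worth, relative to 1 read under a bovine name, in the deposited normalised values (466 to 605 in plasma, 7508 to 8636 in blood cells).

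The scale on which these names are read decided their direction in many cases, because the deposited normalised table scales human names and bovine names to separate totals. The listed human names sum to 892545 to 971918 per library there and not to 1000000, so the total used for them was larger than their listed reads. In that table a read under a human name is worth 466 to 605 times a bovine read in plasma and 7508 to 8636 times a bovine read in blood cells. Of the 44 human names with at least 10 reads, 13 have the higher mean in plasma in the deposited normalised values, and 32 have it in plasma in RPMM on the bovine scale, so that the direction differs for 19. For miR-4792 the deposited values average 55119 in plasma and 255025 in blood cells, whereas on the bovine scale it averaged 102 RPMM in plasma, against 31.6 RPMM in blood cells. For miR-210-3p the direction is the same on both, but the ratio of means is 5.01 in the deposited values and 75.2 on the bovine scale. Every level below is on the bovine scale.

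The human names were few in reads and very unevenly filled. Of their 22267 reads together, plasma held 16759 and blood cells 5508. A single read was all that 55 names had, and another 39 had 2 to 9 reads, so that 94 of 138 names (68.1%) had under 10 reads in the 8 libraries, against 131 of the 565 bovine names (23.2%). Those 94 names held 196 reads together. Reads were found in plasma alone for 61 names, in blood cells alone for 26 and in both for 51, and 22 names had reads in all 8 libraries. With so few reads, absence from a fraction was mostly not detectable. The leading name held 45.6% ± 2.85 of human-name reads in plasma, against 28.1% ± 6.46 in blood cells, and the 5 leading names held 90.5% ± 0.699 in plasma, against 66.1% ± 3.21 in blood cells (SD, n = 4 each, exact permutation p = 0.125 for both). In plasma the leader was miR-210-3p in 3 cows and miR-4532 in cow 46, and in blood cells it was miR-4792 in all 4 cows.

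Over 10 reads were found for 13, 16, 14 and 16 human names in the plasma of cows 44 to 47, and for 17, 16, 19 and 17 in their blood cells. The means were 14.8 ± 1.5 names in plasma and 17.3 ± 1.26 names in blood cells (SD, n = 4 each, exact permutation p = 0.25). The order turned round at equal depth. If every library had 1450425 bovine reads, as the shallowest had, 12.2 ± 1.33 names would be expected over 10 reads in plasma, against 4.15 ± 0.550 in blood cells (SD, n = 4 each), with plasma higher in 4 of 4 cows (exact permutation p = 0.125). The order of the fractions in this number thus depended on depth. Over the whole set, 7 names passed 10 reads in all 8 libraries, namely miR-210-3p, miR-4792, miR-1306-3p, miR-7977, miR-652-3p, miR-3135b and miR-378b.

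The test of counts was edgeR's quasi-likelihood test, which held the cow as a block, scaled libraries by TMM and adjusted p by Benjamini-Hochberg over all names tested, with a name called at an adjusted p under 0.05. TMM scaling sets the bulk of names near no change, and over the 209 names that reached 25 RPMM in 3 or more of the 4 libraries of a fraction the median log2 fold change (plasma over blood cells) was 0.08 with it, against 1.76 with library totals alone. RPMM and log2 fold changes can therefore point in opposite ways. Where a name is said to be higher or lower without mention of RPMM, the TMM scale is meant. Of those 209 names, 178 were called (85.2%), 95 higher in plasma (45.5%) and 83 lower (39.7%). Only 3 human names were among the 209, and 2 were called, both higher. Both had passed the filter through plasma alone. With library totals alone 192 of the 209 names were called (91.9%), 140 higher (67%) and 52 lower (24.9%), and the 3 human names were all higher. A wider fit of the 479 names with at least 10 reads, used for all other human names, called 344 (71.8%), 185 (38.6%) higher and 159 (33.2%) lower in plasma, and among the 44 human names in it 14 (31.8%) were higher and 12 (27.3%) lower. Their median log2 fold change was 0.09, against -0.02 over all 479. The human names thus divided about as all names did. With library totals alone, 23 of the 44 were higher and 3 lower, against 356 (74.3%) of all 479 called, 275 higher (57.4%) and 81 lower (16.9%). All 14 that were higher with TMM were also called higher with library totals. Of the 12 that were lower with TMM, 3 were lower with library totals, 8 were not called and 1 was called higher.

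**Figure D2:**
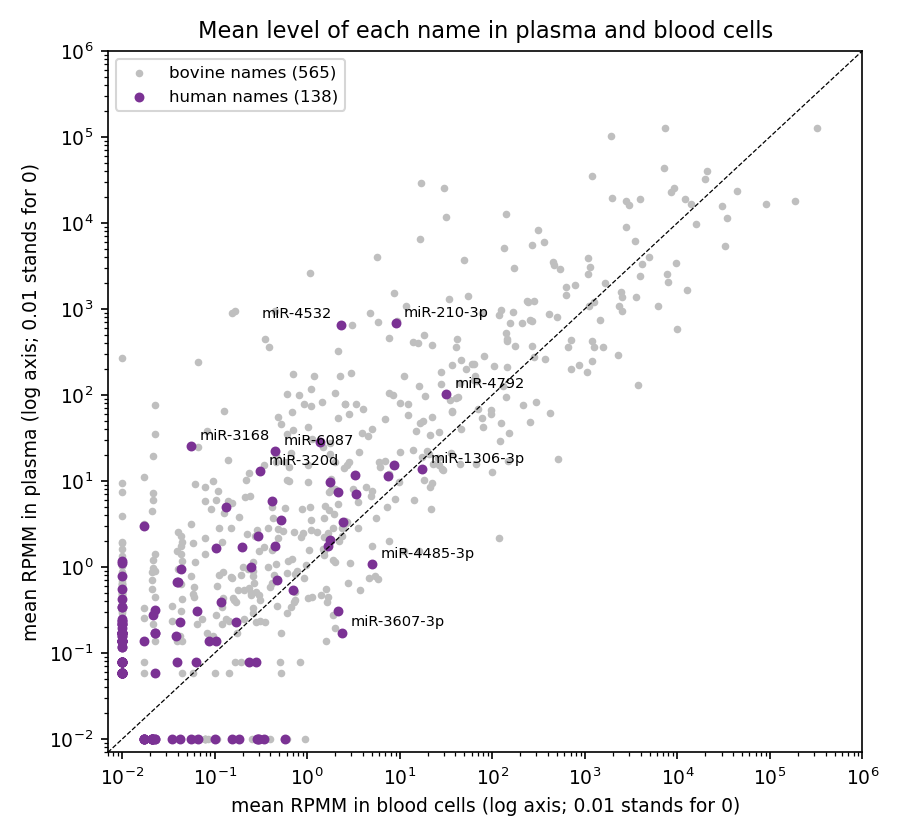
Mean RPMM of each name in plasma (vertical) and blood cells (horizontal), both on log axes with names at 0 drawn at 0.01. Each purple point is 1 of 138 human names, each grey point 1 of 565 bovine names, and the dashed line marks equal RPMM. miR-210-3p (679 in plasma, 9.03 in blood cells) and miR-4532 (657 in plasma, 2.29 in blood cells) stand above the other human names, and miR-4485-3p and miR-3607-3p lie below the line.

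The most abundant human name was miR-210-3p, the main product of the hairpin that low oxygen induces through hypoxia-inducible factor. Its listed location is chr18:1194091-1194112 on the plus strand of bosTau4, the build of the authors' table. It had 808, 715, 567 and 627 RPMM in the plasma of cows 44 to 47, against 8.95, 10.0, 8.34 and 8.79 RPMM in their blood cells. The lowest plasma library lay far above the highest blood cell library. miR-210-3p passed the 25 RPMM filter through plasma alone, the fraction where it was high. The log2 fold change was 4.55 ± 0.19 (SE, adjusted p = 4.03e-06 by edgeR's quasi-likelihood test), and it was 4.48 to 4.65 when a cow was left out. The name miR-210-5p, given to the other arm, was also higher, with 6.89, 7.86, 4.96 and 3.73 RPMM in plasma against 0.179, 0.967, 0.167 and 0.345 RPMM in blood cells, and a log2 fold change of 2.21 ± 0.47 (SE, adjusted p = 0.0031 by edgeR's quasi-likelihood test in the wider fit), which was 2.81 without cow 45. The hypoxia list was defined as miR-210-3p and miR-210-5p alone, so no wider set of hypoxia miRNAs was searched. Within a library, the 5p name took 0.848% ± 0.203 of the reads of both names in plasma, against 4.13% ± 3.23 in blood cells (SD, n = 4 each), and it was lower in plasma in 4 of 4 cows. The blood cell shares rest on 22 reads of the 5p name in all, 14 of them from cow 45, and the mean difference of plasma minus blood cells was -3.28 percentage points with all cows and -1.80 without cow 45.

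The second leading name, miR-4532, is 1 of the human entries listed here as lying in or matching ribosomal or other structural RNA. Its listed location, chr13:38206565-38206581 on the minus strand, is 17 bases long. Plasma held 763, 574, 861 and 432 RPMM in cows 44 to 47, against 3.67, 0.484, 2.42 and 2.59 RPMM in blood cells, and the fractions were far apart in every cow. miR-4532 also passed the 25 RPMM filter through plasma alone. The log2 fold change was 6.64 ± 0.52 (SE, adjusted p = 3.40e-05 by edgeR's quasi-likelihood test), the largest among the 3 human names in the stricter fit. In blood cells it rested on 41, 7, 29 and 30 reads. For miR-4532, miR-574-3p and miR-3168, values reported by the authors differ from the deposited counts scaled by the same rule. The deposited counts were used and the reason was not tested, so the levels of these names are uncertain.

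The third name over the stricter filter, miR-4792, was the most even of the abundant names and is listed at chr18:59082174-59082191 on the plus strand. It had 110, 81.8, 99.7 and 117 RPMM in plasma, against 27.0, 28.1, 27.6 and 43.8 RPMM in blood cells of cows 44 to 47. Plasma was higher in RPMM in every cow, without overlap, yet the difference was no larger than the shift of all names. The log2 fold change was 0.03 ± 0.16 (SE, adjusted p = 0.85 by edgeR's quasi-likelihood test) with TMM and 1.70 (adjusted p = 0.000157 by the same test) with library totals alone. Its blood cell value in cow 47 stood apart from the other 3.

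**Figure D3:**
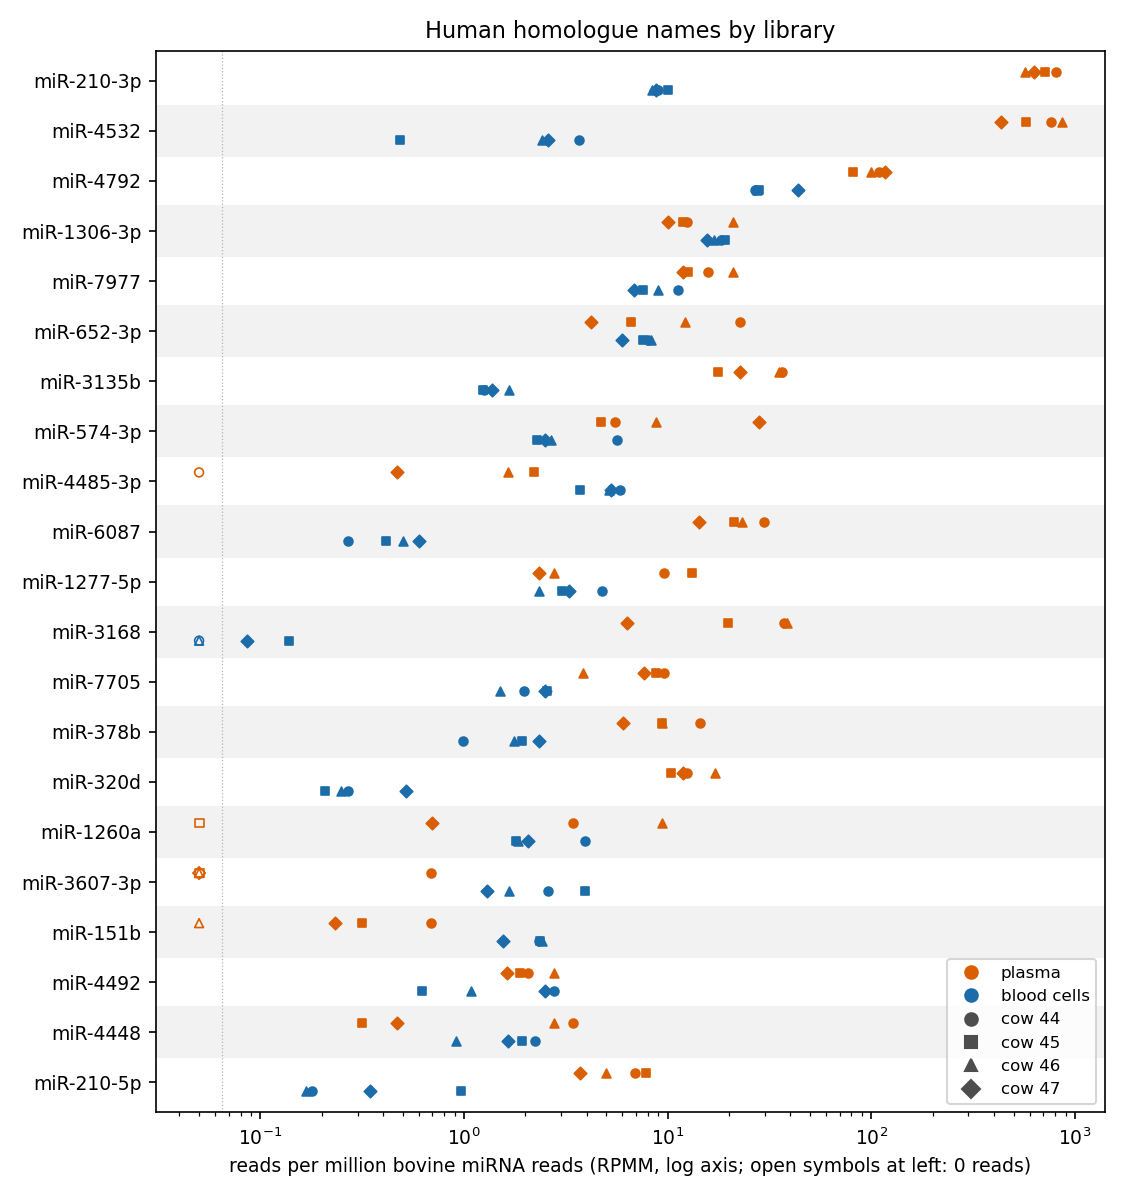
RPMM of the 21 human names singled out by rule, in each library, on a log axis. Orange symbols are plasma and blue symbols blood cells, the shape gives the cow, and open symbols at the left edge mark libraries with 0 reads. The fractions do not overlap for miR-210-3p, miR-4532, miR-4792, miR-7977, miR-3135b, miR-6087, miR-3168, miR-7705, miR-378b, miR-320d and miR-210-5p, which have more RPMM in plasma, and for miR-4485-3p, miR-3607-3p and miR-151b, which have fewer.

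Among names with fewer reads, several were seen in plasma with hardly any reads in blood cells. miR-3168, listed on an unplaced sequence, had 37.2, 19.8, 38.5 and 6.29 RPMM in the plasma of cows 44 to 47 and 0, 2, 0 and 1 reads in their blood cells. The ratio of pooled RPMM was 327, with a 95% exact binomial interval of 110 to 1599. That interval covers counting error only, and not the difference from the authors' reported values named above. Its log2 fold change was 6.64 ± 0.62 (SE, adjusted p = 2.16e-05 by edgeR's quasi-likelihood test in the wider fit), and 7.54 without cow 45 and 6.03 without cow 46. miR-3168 passed the filter of 10 reads through plasma alone, the fraction where it was high. miR-6087 is also listed here, by its name, as matching structural RNA. It had 29.6, 21.1, 23.1 and 14.2 RPMM in plasma, against 0.269, 0.415, 0.500 and 0.604 RPMM in blood cells. Its log2 fold change was 3.94 ± 0.33 (SE). miR-3135b, for which no role is given here, had 36.5, 17.6, 35.2 and 22.6 RPMM in plasma, against 1.25, 1.24, 1.67 and 1.38 RPMM in blood cells, with a log2 fold change of 2.67 ± 0.27 (SE). In each of these the lowest plasma value was above the highest blood cell value. The 3 names over 10 reads in every plasma library that stayed at 10 or fewer in every blood cell library were miR-3168, miR-6087 and miR-320d.

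Some names reached the wider fit on a handful of reads. miR-1290, miR-4317, miR-4497 and miR-640 passed its filter of 10 reads through plasma alone, the fraction where they were high. miR-1290 had 7, 15, 8 and 25 reads in the plasma of cows 44 to 47 against 1, 4, 1 and 1 in blood cells. Its pooled RPMM were 36.0 times as high in plasma (95% exact binomial interval 16.4 to 93.8), and its log2 fold change was 3.47 ± 0.55 (SE), or 4.16 without cow 45. miR-4317 had 3, 8, 11 and 6 plasma reads and 1 read in the blood cells of cow 45 alone, a ratio of pooled RPMM of 128 (95% exact binomial interval 21.2 to 5251), with a log2 fold change of 4.87 ± 0.82 (SE), which was 6.28 without cow 45 and 4.15 without cow 46. miR-4497 had 2, 4, 2 and 4 reads in plasma, against 0 in all blood cell libraries. With 3 reads in the pooled blood cell libraries set as the floor, it would be 18.3-fold higher in plasma. The 95% exact binomial interval of its ratio of pooled RPMM started at 12.7. All 3 were higher in plasma in 4 of 4 cows. miR-640 was also called, with a log2 fold change of 5.24 ± 1.27 (SE), but all of its 19 reads came from the plasma of cow 47. With the same floor it would be 29.0-fold higher in the pooled plasma, and the 95% exact binomial interval of its ratio started at 21.4.

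Across the RPMM of single libraries, 19 of the 44 names did not overlap with plasma higher, 7 did not overlap with plasma lower and 18 overlapped. Over all 479 names, 51.1% did not overlap with plasma higher and 17.1% with plasma lower. The 7 lower names were miR-4485-3p, miR-3607-3p, miR-151b, miR-1827, miR-877-3p, miR-18a-3p and miR-1973, and the last 4 had 0 reads in every plasma library. With 3 reads in the pooled plasma libraries set as the floor, they would be 2.04-fold (miR-1827), 1.24-fold (miR-877-3p), 1.09-fold (miR-18a-3p) and 1.02-fold (miR-1973) lower in plasma. Counting error in the blood cell reads is left out of these folds of the 4 names, so they are not lower limits. The 95% exact binomial intervals of their pooled RPMM ratios of plasma over blood cells reached up to 0.646, 1.11, 1.28 and 1.38 in the same order.

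Of the names with lower RPMM in plasma without overlap, miR-4485-3p was the best covered, with 242 reads in blood cells and 12 in plasma. It lies in mitochondrial DNA in human, and its location in the table is also mitochondrial, chrM:2358-2377. It had 0, 2.20, 1.65 and 0.466 RPMM in the plasma of cows 44 to 47, against 5.82, 3.73, 5.17 and 5.26 RPMM in blood cells, and its log2 fold change was -3.66 ± 0.55 (SE, adjusted p = 0.000379 by edgeR's quasi-likelihood test in the wider fit), and -4.40 without cow 45. The other mitochondrial name, miR-1973, is listed at chrM:2377-2395, overlapping it by 1 base, and had 0 reads in plasma, against 5, 4, 4 and 1 reads in blood cells. None of the 565 bovine names had a mitochondrial location. Together the 2 names took 0.0672% ± 0.0626 of human-name reads in plasma, against 4.69% ± 0.703 in blood cells (SD, n = 4 each).

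miR-3607-3p had 1 read in all plasma libraries, from cow 44, against 2.60, 3.94, 1.67 and 1.29 RPMM in the blood cells of cows 44 to 47. The pooled RPMM ratio of plasma over blood cells was 0.0379 (95% exact binomial interval 0.000952 to 0.215), and the log2 fold change was -5.75 ± 0.76 (SE, adjusted p = 0.000186 by edgeR's quasi-likelihood test in the wider fit). Without cow 44, which gave the only plasma read, it was -7.69, and without cow 45 it was -4.83. The name given to its other arm, miR-3607-5p, went the other way, with 1, 4, 0 and 8 reads in plasma, against 1, 0, 1 and 0 in blood cells, a ratio of pooled RPMM of 29.8 (95% exact binomial interval 6.75 to 272), and a log2 fold change of 2.81 ± 1.12 (SE, adjusted p = 0.0498 in the same fit by edgeR). miR-3607-3p passed the filter of 10 reads through blood cells alone and miR-3607-5p through plasma alone, each the fraction where it was high. The listed locations of the 2 names are 140262 bases apart on chromosome 7.

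For the next 5 names the call depended on the scaling or on a single cow. miR-1306-3p comes from a hairpin that in human overlaps DGCR8, the gene of the RNA-binding partner of Drosha, and had 12.4, 11.95, 20.9 and 10.0 RPMM in plasma, against 18.3, 19.1, 16.9 and 15.6 RPMM in blood cells. The fractions overlapped, and the log2 fold change was -1.98 ± 0.26 (SE) with TMM and -0.39 with library totals, where it was not called. miR-7977 had 15.9, 12.6, 20.9 and 11.9 RPMM in plasma, against 11.3, 7.60, 8.92 and 6.81 RPMM in blood cells, so plasma was higher in RPMM without overlap. Its log2 fold change was nonetheless -0.78 ± 0.26 (SE, adjusted p = 0.0279 by edgeR's quasi-likelihood test) with TMM and 0.81 (adjusted p = 0.0147 by the same test) with library totals, and it was not called without cow 44 (-0.58) or without cow 45 (-0.71). miR-652-3p had 22.8, 6.61, 12.1 and 4.20 RPMM in plasma, against 7.97, 7.53, 8.25 and 5.95 RPMM in blood cells, with a log2 fold change of -1.24 ± 0.31 (SE) with TMM and 0.36 with library totals, where it was not called. miR-4448 was lower with TMM, at -1.89 ± 0.62 (SE), on 13 reads in plasma, against 83 in blood cells, and was not called without cow 45 (-1.34). Without cow 46 it was -2.50. miR-1827 was called lower at -5.19 ± 1.37 (SE), yet 25 of its 28 reads came from the blood cells of cow 46, without which it was not called (-2.93). With library totals miR-1827 was not called. Neither were miR-4448, miR-3653-3p, miR-877-3p, miR-18a-3p and miR-1973, all of them lower with TMM. miR-1827, miR-3653-3p, miR-877-3p, miR-18a-3p and miR-1973 passed the filter of 10 reads through blood cells alone, the fraction where they were high.

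Of the other names singled out, 6 did not pass the test. miR-574-3p had 5.52, 4.72, 8.81 and 27.98 RPMM in the plasma of cows 44 to 47 and 5.64, 2.28, 2.67 and 2.50 RPMM in blood cells, so that cow 47 alone set its plasma mean apart. Its log2 fold change was 0.08 ± 0.65 (SE), and -0.91 without cow 47. miR-1277-5p had 9.65, 13.2, 2.75 and 2.33 RPMM in plasma, against 4.75, 3.04, 2.33 and 3.28 RPMM in blood cells, at a log2 fold change of -0.75 ± 0.40 (SE), which was called without cow 45 (-1.27). miR-1260a had 3.45, 0, 9.36 and 0.699 RPMM in plasma, against 3.94, 1.80, 1.83 and 2.07 RPMM in blood cells, at -1.63 ± 0.75 (SE), called without cow 46 (-2.90). miR-4492 stood at -1.16 ± 0.48 (SE) and was called without cow 45 (-1.48). miR-7705, with 3.85 to 9.65 RPMM in plasma, against 1.501 to 2.56 RPMM in blood cells, stood at 0.20 ± 0.30 (SE). miR-378b, with 6.06 to 14.48 RPMM in plasma, against 0.985 to 2.33 RPMM in blood cells, stood at 0.83 ± 0.35 (SE, adjusted p = 0.062 by edgeR's quasi-likelihood test in the wider fit).

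Some human names are near copies of a bovine name in the same table (miR-320d, miR-151b and the miR-378 letters), and others are the opposite arm of a listed name (miR-1306, miR-210, let-7g and miR-18a). For these the share of reads under the human name, or for miR-210 under the 5p name, can be followed inside a library, where no scaling between libraries enters. A set of 7 such shares were computed, chosen after the values were seen, and none could pass a test with 4 pairs (smallest exact permutation p = 0.125, 0.175 after Benjamini-Hochberg adjustment over the 7). The widest difference was between the arms of miR-1306, where the 3p arm has only a human name and lies 20 bases downstream of the bovine miR-1306 on chromosome 17. The 3p arm took 24.7% (95% exact binomial interval 15.3 to 36.1), 38.0% (28.5 to 48.3), 31.1% (23.1 to 40.2) and 41.7% (32.1 to 51.9) of the reads of both arms in the plasma of cows 44 to 47. In blood cells it took 10.6% (9.28 to 12.1), 17.04% (15.2 to 18.96), 10.6% (9.28 to 12.1) and 14.2% (12.3 to 16.3). The fractions did not overlap, at 33.9% ± 7.56 in plasma, against 13.1% ± 3.11 in blood cells (SD, n = 4 each). Over these libraries bovine miR-1306 had 29.4 ± 15.2 RPMM in plasma, against 121 ± 31.8 RPMM in blood cells (SD, n = 4 each), a log2 fold change of -3.76 ± 0.22 (SE), so both arms were lower in plasma by the test and the arm with the bovine name had the lower log2 fold change.

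**Figure D4:**
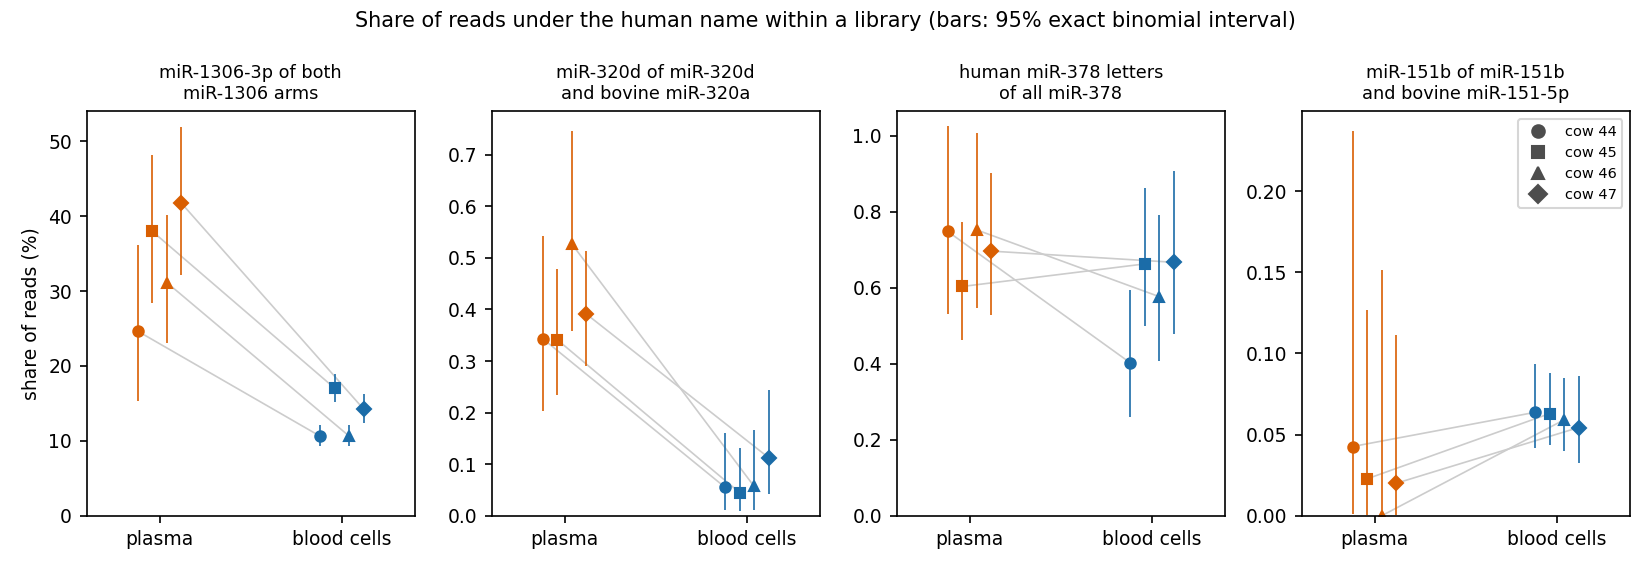
Share of reads (%) under a human name among the reads of that name and its partner in the same library, with plasma left and blood cells right in each panel, 1 symbol per cow and bars for the 95% exact binomial interval. The miR-1306 3p arm (24.7 to 41.7% in plasma, 10.6 to 17.04% in blood cells) and miR-320d (0.341 to 0.527% in plasma, 0.0447 to 0.112% in blood cells) are higher in plasma in every cow, the miR-378 letters overlap, and miR-151b is lower in plasma in every cow.

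miR-320d, a shorter near copy of miR-320a, took 0.401% ± 0.0873 of the reads of both in plasma, against 0.0672% ± 0.0305 in blood cells (SD, n = 4 each), without overlap. Both names were higher in plasma. miR-320d had 12.4, 10.4, 17.1 and 11.9 RPMM in plasma, against 0.269, 0.207, 0.250 and 0.517 RPMM in blood cells, with a log2 fold change of 3.76 ± 0.36 (SE), while bovine miR-320a had a log2 fold change of 1.19 ± 0.20 (SE). miR-151b, which nearly repeats the 5p arm of miR-151, took 0.0213% ± 0.0174 in plasma, against 0.0600% ± 0.00428 in blood cells (SD, n = 4 each), on 3 reads in plasma. Its ratio of pooled RPMM was 0.129 (95% exact binomial interval 0.0261 to 0.386). It was lower in plasma at -4.28 ± 0.57 (SE), as was bovine miR-151-5p at -2.98 ± 0.22 (SE). miR-151b passed the filter of 10 reads through blood cells alone, the fraction where it was high. Reads of such near copies can be split between names by a few bases, so their values are uncertain, and the part of such splitting was not tested.

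The human letters of miR-378 (b, e, f, g, h, i and j) are near copies of miR-378, whose hairpin in mouse and human sits in an intron of the gene for the coactivator PGC-1 beta. Together the 7 had 200 reads in plasma, against 158 in blood cells, or 20.7 ± 5.77 RPMM in plasma, against 3.16 ± 0.669 RPMM in blood cells (SD, n = 4 each). They took 0.700% ± 0.0693 of all miR-378 reads in plasma, against 0.577% ± 0.124 in blood cells (SD, n = 4 each), and this was higher in plasma in 3 of 4 cows (exact permutation p = 0.375). Of the 7, miR-378e and miR-378i were called higher in plasma with TMM and 6 with library totals, against 38.6% and 57.4% of all 479 names, and none was called lower. miR-378e passed the filter of 10 reads through plasma alone. Called higher with TMM was also the bovine miR-378 at a log2 fold change of 0.79 ± 0.17 (SE). Their listed locations lay on 6 different chromosomes.

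Opposite arms of well-known hairpins were among the rare human names. miR-18a-3p, from the miR-17-92 cluster, had 0 reads beside 806 of bovine miR-18a in plasma and 15 beside 14592 in blood cells. let-7g-3p had 1 read beside 33959 of let-7g in plasma and 13 beside 205647 in blood cells. With let-7i-3p these were the only members of the let-7 and miR-17-92 list. Of these, 1 name, miR-18a-3p, was called lower in plasma with TMM. miR-18a-3p passed the filter of 10 reads through blood cells alone. With library totals it was not called (adjusted p = 0.09 by edgeR's quasi-likelihood test). The exact binomial interval of its pooled RPMM ratio of plasma over blood cells reached up to 1.28. Its 0 reads in plasma therefore do not decide whether its RPMM were lower there. The lists of muscle, liver, epithelial, neural and placental (C19MC) miRNAs had no member under a human name, and miR-802 was not on the liver list. Bovine names were searched first, and listed miRNAs such as miR-122, miR-133a and miR-200a had reads under bovine names.

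The 16 names listed here as lying in or matching ribosomal, transfer, small nuclear, small nucleolar or mitochondrial RNA were picked by name, and no sequence was compared. They took 41.9% ± 7.19 of human-name reads in plasma, against 19.4% ± 4.31 in blood cells (SD, n = 4 each). Nearly all of the plasma share was miR-4532. They did not move together. With TMM, among the 9 with at least 10 reads, miR-4532 and miR-6087 were higher in plasma and miR-7977, miR-4485-3p, miR-3653-3p and miR-1973 were lower. miR-1260a, miR-4492 and miR-3651 were not called. miR-3653 and miR-3651 lie in small nucleolar RNAs in human. With library totals, 3 of the 9 were higher (miR-4532, miR-6087 and miR-7977) and 1 was lower (miR-4485-3p). Thus miR-7977 turned round, and miR-3653-3p and miR-1973 were not called on that scale.

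By their names, 109 of the 138 had no bovine name of the same number in the table, 24 had one of the same number with another arm or letter, and 5 had the same name. Names without a bovine number held 96.4% ± 0.582 of human-name reads in plasma, against 72.8% ± 2.56 in blood cells, and those with the same number under another arm or letter held 3.00% ± 0.534 in plasma, against 25.5% ± 2.83 in blood cells (SD, n = 4 each). Names numbered 1000 or above, which were registered late, made up 103 of the 138 and held 54.4% ± 7.01 of human-name reads in plasma, against 75.8% ± 2.42 in blood cells (SD, n = 4 each). A bovine hairpin of the same name stood in RefSeq for 25 of the 138, which held 45.3% ± 7.08 of the reads in plasma, against 39.7% ± 3.78 in blood cells (SD, n = 4 each).

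The listed locations of the human names were shorter than those of the bovine names. Their median length was 20 bases, against 22 for bovine names, and 54 of 138 (39.1%) were 19 bases or shorter, against 12 of 565 (2.12%). These shorter names included miR-4532 and miR-4792 and held 52.8% ± 7.13 of human-name reads in plasma, against 64.5% ± 3.56 in blood cells (SD, n = 4 each). Short sequences match a genome at more places by chance, and each name has a single location in it. Locations on unplaced sequence were listed for 10 human names (7.25%) and 30 bovine names (5.31%).

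**Figure D5:**
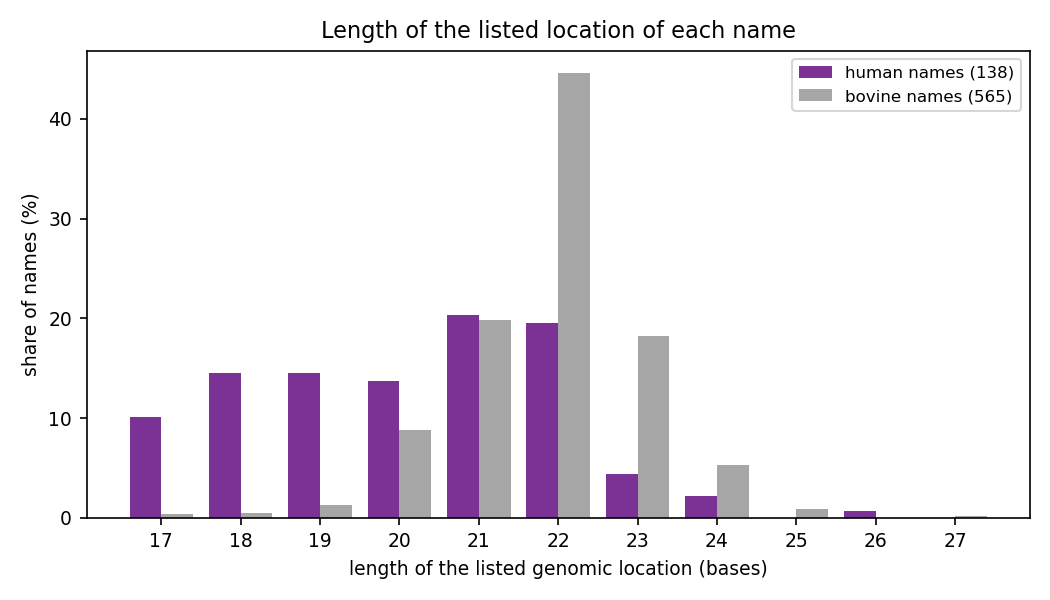
Length of the genomic location listed for each name (bases, horizontal) as a share of names (%, vertical), for 138 human names in purple and 565 bovine names in grey. Bovine names peak at 22 bases, whereas human names run from 17 to 26 bases, with 54 of 138 at 19 bases or shorter.

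Where both arms of a hairpin were in the table, bovine names usually lay as a hairpin requires, on the same strand, within 100 bases and with the 5p arm first. This held for 54 of 57 bovine pairs and for 0 of 3 human pairs. The listed locations of miR-210-5p and miR-210-3p were 11886446 bases apart on chromosome 18, and those of the miR-6501 arms 216 bases apart. miR-877-3p was listed on chromosome 25, whereas bovine miR-877 was listed on chromosome 23. By contrast, 8 human names lay within 100 bases of a bovine name on the same strand, among them miR-1306-3p, miR-18a-3p, let-7g-3p and miR-6516-3p. A listed location therefore does not always mark the hairpin after which a name is called.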

How the data were processed

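Per the labels, small RNA libraries were sequenced as single 36-base reads. The authors discarded low-quality reads (no adapter, too short, undetermined bases), aligned the others to bosTau4 by sRNAbench and Bowtie 0.12.9, and deposited unscaled counts of reads for each mature name, searching bovine names before human ones. The normalised values deposited by the authors scale human and bovine names to separate totals, the human one larger than the listed human-name reads, and were used only for the comparison of scales and for 1 alternative filter. The files held no comparisons of the authors' own, and 0 columns of other samples.

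Counts were used for every test, and RPMM were recomputed with the bovine total as denominator for all names. edgeR 4.0.16 with limma 3.58.1 in R 4.3.3 gave the quasi-likelihood test (TMM, cow as a block, Benjamini-Hochberg adjustment). The SE is the absolute log2 fold change over the root of F. The strict filter was 25 RPMM in 3 of 4 libraries of a fraction (209 names) and the wide one 10 reads over the 8 libraries (479 names). Under the strict filter, plasma had TMM factors of 1.43 to 2.00, against 0.519 to 0.602 for blood cells. Single values per library were compared by exact permutation of the paired differences. Expected numbers of names at equal depth are hypergeometric expectations over reads. Intervals cover counting error only, since PCR copies are not independent molecules. Folds against a floor of 3 reads leave out counting error in the other fraction and are not lower limits.

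Fractions were paired because both came from the same cow. Deviations from the fraction means correlated across names at 0.0508, 0.0563, 0.0757 and 0.234 for libraries of the same cow, and at -0.174 to 0.106 for different cows.

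Names were singled out by rule: those in the strict fit, the 10 with the most pooled RPMM per fraction, those over 10 reads in all 4 libraries of a fraction, and list members over 10 reads in a library. Others were chosen after their values were seen. The members and lists were chosen with earlier results of these data known. Alternatives were no block, size factors by RLE, library totals, DESeq2 1.42.0, the likelihood ratio test, other filters and leaving out each cow. Their use with the wide filter was added after the data were seen. Read sequences and tissue panels were not analysed here.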

Additional observations from a re-analysis of the deposited data

Results flagged for a closer look

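In groups of 4 libraries, a value was singled out where its gap to the nearest other library was over Dixon's 95% critical share of the group's whole range. For normally distributed values chance meets this in about 1 in 20 groups. That rate does not hold here, since a group with reads in 1 library alone always meets it and a group of equal values never can. The rule was met in 9 of 70 groups screened, and no cause was tested. In blood cells, miR-4792 had 43.8 RPMM in cow 47, against 27.0 to 28.1 RPMM in the other cows, miR-574-3p had 5.64 RPMM in cow 44, against 2.28 to 2.67 RPMM, and miR-1260a had 3.94 RPMM in cow 44, against 1.80 to 2.07 RPMM. miR-151b had 1.55 RPMM in the blood cells of cow 47, below the 2.33 to 2.42 RPMM of the others.

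Other values stood apart because nearly all reads of a name came from 1 library. miR-1827 had 2.08 RPMM in the blood cells of cow 46, against 0.0691 to 0.0895 RPMM in the others, and miR-6130 had 1.17 RPMM in that same library and 0 in the others. miR-640 had 4.43 RPMM in the plasma of cow 47 and 0 in the other plasma libraries. miR-3607-3p had 0.689 RPMM in the plasma of cow 44, from 1 read, and 0 in the others, and the share of let-7g-3p in the reads of both let-7g arms was 0.00825% in the plasma of cow 45, also from 1 read, and 0 in the others.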

How the results depend on the processing

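Filters moved the counts of calls most. Against 178 calls (95 higher, 83 lower) over all names, 331 (178 higher, 153 lower) were found with no filter and 344 (185 higher, 159 lower) with at least 10 reads, while library totals alone left 52 lower. Against 2 human names higher and 0 lower, there were 13 and 12 with no filter, 14 and 12 with at least 10 reads, 6 and 2 with 10 RPMM in 3 of 4 libraries, and 13 and 11 with a filter on the deposited values. Each such filter tests more human names. With at least 10 reads, library totals alone gave 23 higher and 3 lower. Scaling turned the log2 fold change of miR-7977 (0.81), miR-652-3p (0.36), miR-1277-5p (0.85) and miR-4492 (0.37) positive under library totals. miR-574-3p was at -0.041 by DESeq2 and at -0.046 by the likelihood ratio test. The cause of these turns, apart from the filter and the scaling, was not tested. Plasma minus blood cells in names over 10 reads was -2.5 at full depth, where the libraries differ in size.

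Leaving out a cow gave -0.052 to 0.10 for miR-4792, -0.91 to 0.69 for miR-574-3p and -0.000604 to 0.32 for miR-7705. In the wide fit it left 10 to 12 human names higher and 9 to 13 lower, and without cow 47 their median log2 fold change was -0.51, against -0.22 over all names. miR-640 without cow 47 has no reads and gives no value. Without the pairing by cow (no block), 174 names were called, 2 of them human names that were higher, and in the wide fit 18 human names were higher and 13 lower, with miR-378b (0.83) and miR-4492 (-1.34) then called and miR-1827 (-5.57) no longer called. For single names, 255 values under an alternative kept their direction and side of the threshold, 14 came to be called, 10 were no longer called and 9 turned round.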
